A study of Mus musculus with 3 samples.

Results

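The genes described here are the 10 members of the signalling module that meets chaperone-mediated autophagy (CMA) at the lysosome: Rictor, Mapkap1, Mlst8, Mtor, Rptor, Deptor, Akt1, Akt2, Phlpp1 and Phlpp2. They were chosen by name, and every array probe whose RefSeq accession matched one of these symbols was taken. This gave 14 probes of the 55681 that are not controls, of which 27235 could be named and stood for 20660 genes. Akt2 had 3 probes, Mapkap1 and Phlpp2 had 2 each, and each other gene had 1.

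The samples were single cultures of NIH3T3 cells, an immortalised line of mouse embryonic fibroblasts, hybridised to 1-colour Agilent arrays with 1 array per condition. Cells labelled None had no compound, and the other cultures received 20 μM AR7 or 20 μM BMS614, both dissolved in DMSO. All were grown to confluency in DMEM with serum (fetal bovine in the labels, newborn calf in the study's methods) and collected after 24 h, and the labels do not say whether the untreated culture received DMSO. AR7 is an activator of CMA that binds the retinoic acid receptor alpha (RARα) and BMS614 is an antagonist of that receptor, so the arrays ask how far each compound changed the RNA of these genes.

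CMA carries single cytosolic proteins to the lysosomal receptor LAMP2A, and kinases at the lysosomal surface set how well that receptor assembles. mTOR complex 2 (mTORC2), built on RICTOR, phosphorylates AKT there, which holds CMA back, and the phosphatase PHLPP1 removes that phosphate and releases it. mTOR complex 1 (mTORC1), built on RPTOR, shares the kinase and governs macroautophagy instead. These switches are phosphorylation steps, and the values below are RNA levels only.

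With 1 array per condition there was no replicate, so no test was made and a difference between arrays is given as a description. Signals are log2 values after RMA, the background correction and quantile normalization named in the study's methods. A difference was called at 0.32 or more on the log2 scale in either direction, which for an increase is a signal higher by 25%. Beside each difference stands the SD of the same difference between repeated spots of one probe at that brightness, taken from 266 probes printed 10 times on every array. That SD covers spot error on the arrays and not the variation between cultures. The upper quartile of raw intensity was 692 for None, 780.5 for AR7 and 909 for BMS614, so raw intensities carry a difference in brightness between arrays that normalization removed. All 10 fibroblast markers were well above background on every array, as were 8 of the 17 markers of other cell types that had a named probe (Cdh1, Krt8, Cd3e, Itgam, Pecam1, Kdr, Rbfox3 and Snap25), whose part in the results was not tested. In RNA from whole cultures, fewer cells with a transcript and less of it per cell cannot be told apart.

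Because both compounds act on a retinoid receptor, the 250 bases before each annotated gene start are of interest. RefSeq promoter windows on build GRCm38.p6 matched 9 of the 10 genes (not Deptor), with 14 windows in all. Those of 3 genes are printed on the strand of the gene, with capitals marking the searched letters. Rictor and Phlpp1 are shown because they had the largest increases with BMS614. The upstream window of Akt1 is shown as the only member window with the retinoid half-site AGGTCA. The coordinates are chr15:6708131-6708380 on the plus strand for Rictor, chr1:106171619-106171868 on the plus strand for Phlpp1 and chr12:112674885-112675134 on the minus strand for Akt1.
Rictor: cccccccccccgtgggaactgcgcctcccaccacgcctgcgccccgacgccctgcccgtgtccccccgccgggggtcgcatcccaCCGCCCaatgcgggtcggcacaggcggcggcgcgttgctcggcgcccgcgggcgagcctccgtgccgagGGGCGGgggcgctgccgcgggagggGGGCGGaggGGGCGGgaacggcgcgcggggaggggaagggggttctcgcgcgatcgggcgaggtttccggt
Phlpp1: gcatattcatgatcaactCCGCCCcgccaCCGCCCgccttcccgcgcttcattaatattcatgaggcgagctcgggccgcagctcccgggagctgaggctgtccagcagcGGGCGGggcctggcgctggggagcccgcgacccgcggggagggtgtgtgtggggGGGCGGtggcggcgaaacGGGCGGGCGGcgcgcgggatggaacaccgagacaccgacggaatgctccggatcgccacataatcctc
Akt1: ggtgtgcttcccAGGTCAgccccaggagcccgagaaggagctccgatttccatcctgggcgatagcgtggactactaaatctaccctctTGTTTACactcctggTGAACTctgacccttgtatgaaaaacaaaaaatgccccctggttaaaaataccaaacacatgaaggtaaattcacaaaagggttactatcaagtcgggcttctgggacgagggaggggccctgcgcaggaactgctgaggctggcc

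The letters were searched on both strands of all 32851 promoter windows of that length. The half-site of a retinoic acid response element, AGGTCA, was in 14% of all windows and in the Akt1 window, 238 bases before the start. Direct repeats of exactly these letters, with a spacer of 1, 2 or 5 bases, were in 11, 3 and 3 windows of all. No member window held such an exact repeat. Repeats with other forms of the half-site were not searched, so their absence from member windows was not tested. The half-site form AGTTCA was in 11.8% of all windows and in windows of Akt1 and Mapkap1. The FOXO site TGTTTAC was in 3.17% of all windows and in the same genes, Akt1 and Mapkap1, at 161 bases before the start in Akt1. No member window held the E-box CACGTG, present in 6.02% of all windows, or TCACGTGA, which contains it and was present in 0.785%.

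The GC box GGGCGG was the motif that most member windows shared, with 8 of 14 windows against 32.7% of all windows. Those windows belonged to 7 genes (Akt1, Akt2, Mapkap1, Mtor, Phlpp1, Phlpp2 and Rictor). The windows are not independent, since those of Mapkap1 overlap and hold the same GC boxes. Rictor held 4 copies, 165, 96, 71 and 62 bases before its start. Phlpp1 held 6, of which the pair nearest the start, at 68 and 64 bases, overlap. GC content was 81.2% in the Rictor window, 70.0% in the Phlpp1 window and 52.0% in the printed Akt1 window, where the median of all windows was 52.4%. A match of letters describes the window and does not show that a factor binds there.

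Of the 14 member probes, 13 were well above background on all 3 arrays, and each gene had at least 1 such probe. None of these 13 carried an outlier or saturation mark on any array. The exception was the second probe of Phlpp2, which stayed too dim on each array to count as well above background. With AR7, 0 of 13 probes passed that threshold against None, where 17.6% of all probes tested did. With BMS614, 1 of 13 passed, the Rictor probe, where 19.7% of all probes did. Between BMS614 and AR7, 0 of 13 passed, where the share over all probes was 19.6%. Both compounds were compared with the same None array, so these counts are not independent of each other. Among all probes well above background on all 3 arrays, as these 13 were, the shares were 13.8%, 16.2% and 12.6% in the same order. The members were called no more often than either set of shares.

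**Figure D1:**
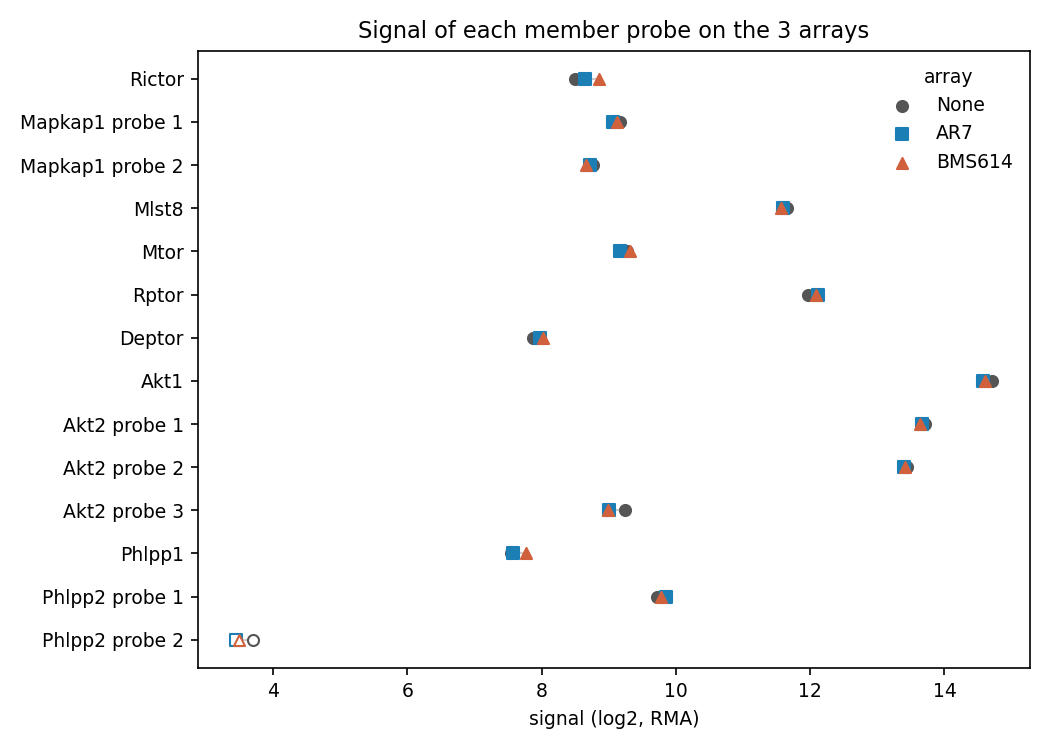
Signal (log2, RMA) of each of the 14 member probes on the None, AR7 and BMS614 arrays, 1 point per array; open symbols mark the Phlpp2 probe that was not well above background. Most probes have their 3 points on top of each other, and the Rictor points are spread from 8.50 to 8.86.

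Rictor, the scaffold that defines mTORC2 and is absent from mTORC1, had a log2 signal of 8.50 in None, 8.65 with AR7 and 8.86 with BMS614. The raw intensities were 424, 520 and 668. None was the lowest array and BMS614 the highest, with AR7 between them. Rictor rose 1.28-fold with BMS614, a log2 difference of 0.36 with a repeat-spot SD of 0.10. With AR7 the difference was 0.15 (SD 0.08), or 1.11-fold, which did not pass the threshold. BMS614 exceeded AR7 by 0.21 (SD 0.09), or 1.16-fold. Rictor was the widest-ranging member. Among the 3428 probes well above background in its own band of signal, between 8.42 and 9.54, 6.71% passed the threshold in the comparison of BMS614 with None. Its call rested on a value near the threshold, and it was 0.28 with another background correction (normexp) and 0.3186 in the deposited table, both just under the threshold, which is 0.3219 in full. Rictor has only 1 probe and 1 spot on the array.

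Mapkap1 encodes SIN1, the mTORC2 subunit that presents AKT to the kinase. Its brighter probe, A_55_P2046363, read 9.17 in None, 9.06 with AR7 and 9.13 with BMS614. The other, A_55_P2046368, read 8.76, 8.73 and 8.66. On both probes None was the highest array. The AR7 differences were -0.10 (SD 0.08) and -0.04, and the BMS614 differences were -0.04 (SD 0.10) and -0.11. The 2 probes put the compounds in opposite order, with BMS614 minus AR7 at 0.07 and -0.07. The obligate partner of RICTOR in mTORC2 therefore stayed within the threshold where Rictor did not; the difference between the genes was not tested.

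Mlst8 and Mtor serve both complexes. Mlst8, a small subunit bound to the kinase domain, read 11.66 in None, 11.60 with AR7 and 11.56 with BMS614. It was highest in None and lowest with BMS614, and its differences from None were -0.06 (SD 0.06) and -0.10 (SD 0.05). Mtor, the kinase itself, read 9.27, 9.17 and 9.32. AR7 was the lowest array and BMS614 the highest for Mtor. The difference was -0.10 (SD 0.08) with AR7, 0.05 (SD 0.10) with BMS614 and 0.15 (SD 0.09) between BMS614 and AR7.

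Rptor, the scaffold of mTORC1, read 11.97 in None, 12.12 with AR7 and 12.09 with BMS614. Both treated arrays were above None and close to each other. The differences were 0.16 (SD 0.05), or 1.11-fold, with AR7 and 0.12 (SD 0.05), or 1.09-fold, with BMS614, and BMS614 minus AR7 was -0.03 (SD 0.04). Rptor and Rictor had the highest AR7 differences of the 10 genes, and their order changed with the processing: Rictor was above Rptor with the processed signal (0.21 against 0.17), the deposited table (0.17 against 0.14) and RMA background with 75th percentile scaling (0.16 against 0.15). Deptor, an inhibitor bound to mTOR in both complexes, read 7.88, 7.97 and 8.03. Its order over the arrays was that of Rictor, None lowest and BMS614 highest, but its differences of 0.10 (SD 0.13) and 0.15 (SD 0.12) were at most little more than 1 SD of repeated spots.

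**Figure D2:**
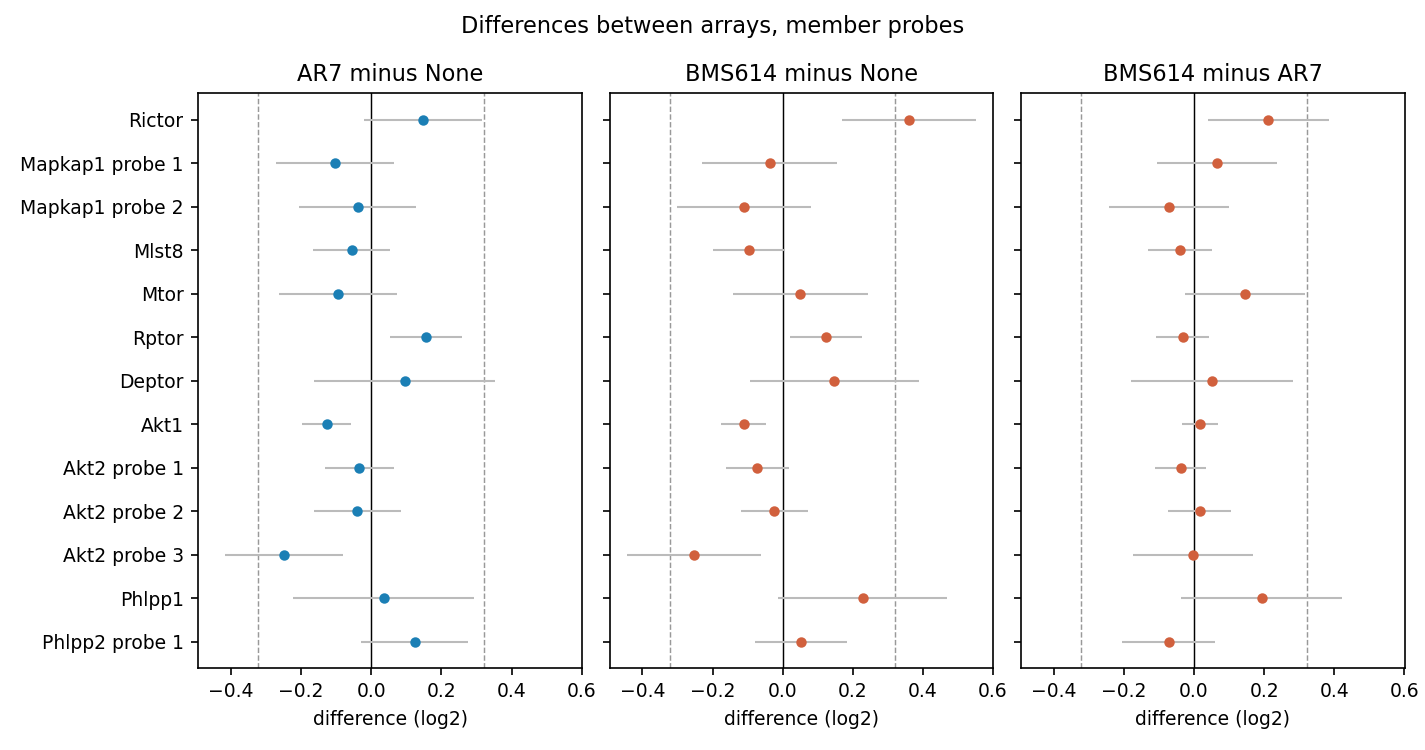
Log2 difference between arrays for the 13 member probes well above background, in 3 panels (AR7 minus None, BMS614 minus None, BMS614 minus AR7); grey bars are 2 SD of repeated spots to either side and dashed lines mark the threshold of 0.32. Only Rictor with BMS614, at 0.36, lies past a dashed line.

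Akt1 and Akt2 encode the kinases that mTORC2 phosphorylates and that PHLPP1 dephosphorylates. The Akt1 probe was printed in 2 spots and read 14.71 in None, 14.58 with AR7 and 14.60 with BMS614. Both treated arrays were below None, with differences of -0.13 (SD 0.03) and -0.11 (SD 0.03), and they differed from each other by 0.02 (SD 0.03). The spots of Akt1 did not give the same value. For AR7 minus None, 1 spot gave 0.03 and the other -0.29, a gap of 0.32 where the median gap over the 19 probes printed in 2 spots was 0.078. For BMS614 minus None they gave -0.08 and -0.14, and both were below 0. The AR7 value of Akt1 therefore rests on 1 of its 2 spots. For BMS614 minus AR7 the spots gave -0.11 and 0.15, so the difference of 0.02 averages spots of opposite sign.

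Akt2 was read by 3 probes. A_55_P2025228, the brightest, read 13.71 in None, 13.67 with AR7 and 13.63 with BMS614, with differences of -0.03 (SD 0.05) and -0.07 (SD 0.05). A_55_P2066518 read 13.44, 13.40 and 13.42, with differences of -0.04 and -0.02. On these probes the 3 arrays lay close together, with None highest on both. The third, A_55_P2066523, was far dimmer and read 9.25 in None and 9.0 on each treated array, from raw intensities of 636.5, 628 and 722. Its differences were -0.25 (SD 0.08) with AR7 and -0.25 (SD 0.10) with BMS614, below the threshold and in the same direction as the other probes. The gap of that probe from the others can be set against a median gap of 0.11 for AR7 and 0.12 for BMS614 between the 2 brightest probes of 3381 genes.

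Phlpp1, the phosphatase that acts on AKT at the lysosome, read 7.54 in None, 7.58 with AR7 and 7.77 with BMS614. BMS614 was the highest array, and AR7 differed from None by 0.04 (SD 0.13). The BMS614 difference was 0.23 (SD 0.12), or 1.17-fold, and BMS614 minus AR7 was 0.19 (SD 0.12). Neither passed the threshold, and with the normexp background the BMS614 difference was 0.12. Phlpp2, its paralog, read 9.72, 9.85 and 9.78 on its brighter probe, with AR7 the highest array. Its differences were 0.12 (SD 0.08) with AR7 and 0.05 (SD 0.07) with BMS614. The dim Phlpp2 probe had raw intensities of 115, 124 and 127 and gives no usable difference.

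**Figure D3:**
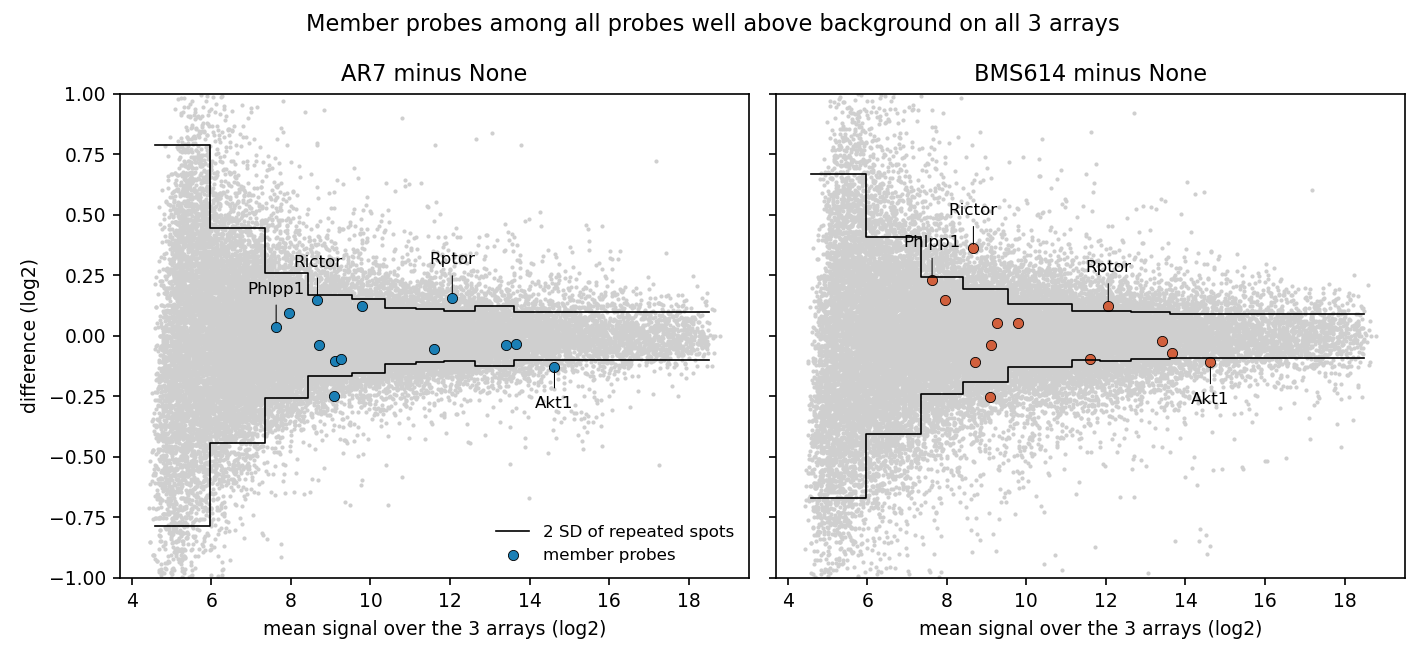
Log2 difference from None against mean log2 signal for all probes well above background on all 3 arrays (grey), with member probes in colour and black steps at 2 SD of repeated spots; the y axis is cut at 1 to either side. The scatter of all probes widens below a signal of about 8, and with BMS614 Rictor lies above the steps at 0.36 while Phlpp1 lies near them at 0.23.

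Set against spot error in place of a fixed fold, more member probes stood out. With AR7, 3 of 13 probes lay past 2 SD of repeated spots: Rptor was higher, and Akt1 and the dimmest Akt2 probe were lower. The same limit was passed by 17.7% of the 30289 probes that were well above background on every array. With BMS614, 4 of 13 lay past 2 SD, namely Rictor and Rptor higher and the same Akt1 and Akt2 probes lower, where the share of all probes was 25.7%. Between BMS614 and AR7 only Rictor did, 1 of 13, where the share was 25.1%. None of these counts stood above its background by more than 1 probe.

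The module as a list did not lie to one side of None. The median over the 10 genes was 0.0008 with AR7, with 5 genes above 0 and 5 below, where the median over 13805 named genes was -0.0054. With BMS614 it was 0.05, with 6 genes above and 4 below, and the median over all named genes was -0.0023. Between BMS614 and AR7 it was 0.03, again with 6 above and 4 below. The order None, AR7, BMS614 from low to high was found in 3 genes, Rictor, Deptor and Phlpp1. None was the highest array in 4 genes, BMS614 in 4 and AR7 in 2. By probe, None was highest in 7 of the 13 well above background, BMS614 in 4 and AR7 in 2. Those 7 include every Akt2 and Mapkap1 probe, so they are not 7 genes. Over all probes, None was highest in 36.1%, AR7 in 30.0% and BMS614 in 33.9%.

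The surrounding pathway was described with 10 lists of other genes, 99 genes in all, of which 93 had a brightest probe well above background on all 3 arrays. With AR7, 0 of 93 were higher past the threshold and 2 were lower, where 8.68% of all 13805 named genes passed in either direction. With BMS614, 1 was higher and 3 were lower, where 10.1% of all named genes passed. Between BMS614 and AR7, 1 was higher and 2 were lower, where 8.12% passed. The medians over the 93 genes were -0.0070, -0.013 and 0.0026. These calls use the brightest probe of a gene. A further 42 probes of 33 of these genes were well above background on every array. Of these, 2 were higher and 4 lower with AR7, 3 higher and 2 lower with BMS614, and 3 higher and 0 lower between the compounds. Of all 30289 probes well above background on every array, 13.8%, 16.2% and 12.6% passed in either direction in these comparisons. The probes of a gene did not always go the same way, and where those of a named gene differ their values are given.

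**Figure D4:**
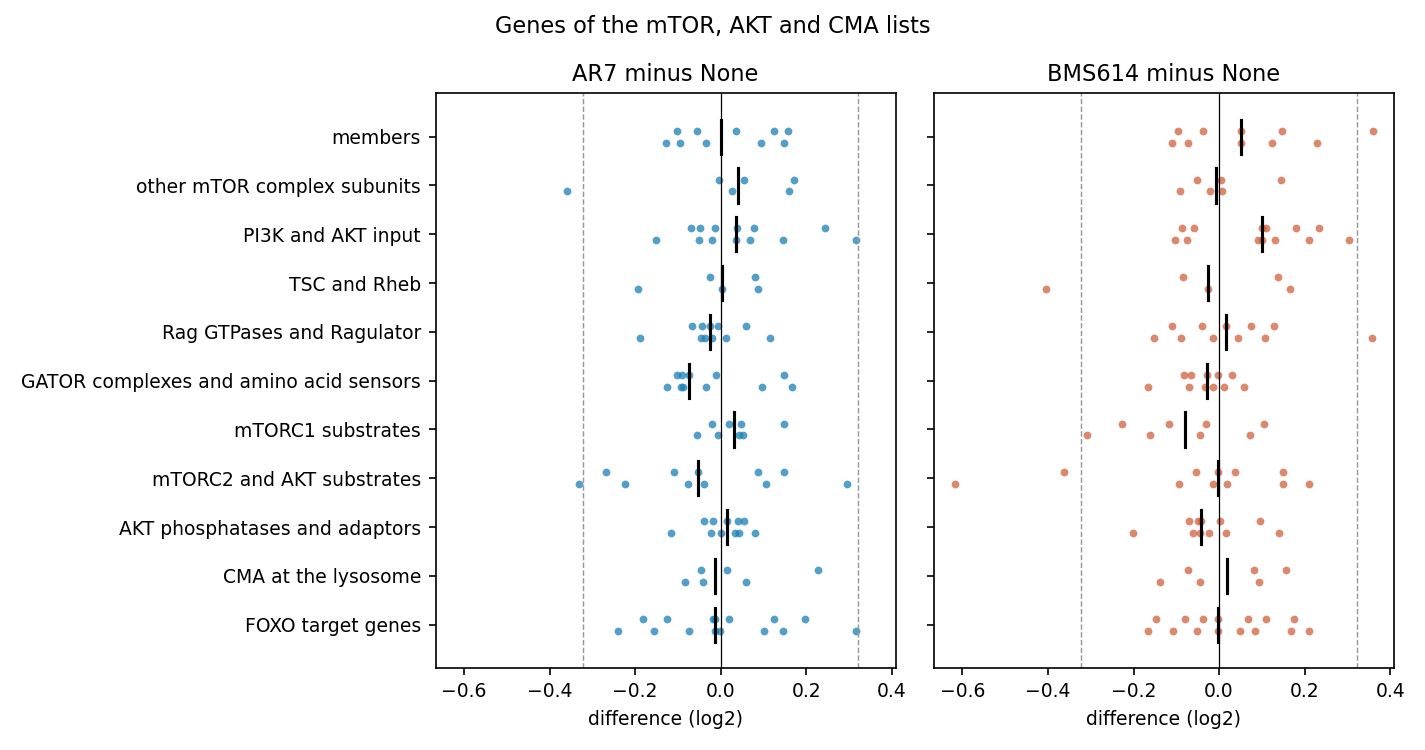
Log2 difference from None for each measured gene of the member set and of the 10 pathway lists, 1 point per gene, with black bars at the list medians and dashed lines at the threshold of 0.32. The medians all lie within about 0.1 of 0, and the points past the dashed lines are Akt1s1 and Foxo3 with AR7, and Rictor, Rraga, Tsc2, Foxo3 and Foxo4 with BMS614.

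Among the other subunits of the mTOR complexes, 1 of 6 passed. Akt1s1, which encodes PRAS40, an mTORC1 inhibitor that AKT phosphorylates, read 8.23 in None, 7.87 with AR7 and 8.13 with BMS614. It fell by 0.36 with AR7 (SD 0.13) and differed by -0.09 (SD 0.12) with BMS614. Prr5, a subunit that binds RICTOR, had the highest AR7 value, 0.17, and its relative Prr5l the highest with BMS614, 0.15, where a second Prr5l probe gave -0.06. The lowest others were Tti1 with AR7, at -0.00, and Akt1s1 itself with BMS614.

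By brightest probes, none of 13 measured genes that lead from growth factor receptors through PI3K to AKT passed in any comparison. Their median was 0.04 with AR7 and 0.10 with BMS614, with 7 and 9 genes above 0. The highest were the insulin receptor Insr with AR7, at 0.32 with an SD of 0.22 and just under the threshold, where its other probes gave 0.47 and 0.13, and the IGF-1 receptor Igf1r with BMS614, at 0.30 with an SD of 0.05. The lowest were the PI3K regulatory subunits Pik3r1 with AR7 (-0.15) and Pik3r2 with BMS614 (-0.10).

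Of 5 genes of the TSC complex and Rheb, the brake on mTORC1 and its target GTPase, Tsc2 was lower with BMS614. It read 5.86 in None, 5.67 with AR7 and 5.46 with BMS614, a dim probe whose difference of -0.40 has an SD of 0.33. Tbc1d7, a further TSC subunit, was the highest with each compound, at 0.09 and 0.17. With AR7 the lowest was Tsc2, at -0.19, and with BMS614 the lowest besides it was Rheb, at -0.09 (its other probe above background gave -0.05).

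The Rag GTPases and Ragulator hold mTORC1 at the lysosome when amino acids are present, and 1 of 11 measured genes passed. Rraga, which encodes RagA, read 11.91 in None, 11.86 with AR7 and 12.26 with BMS614. None and AR7 lay together and BMS614 stood apart. Rraga rose by 0.36 (SD 0.05) over None and by 0.41 (SD 0.04) over AR7, the clearest pathway difference relative to spot error among the calls. With AR7 the Ragulator subunits Lamtor1 and Lamtor5 were the extremes, at 0.11 and -0.19. With BMS614 the others ran from Flcn (-0.15) to Slc38a9 (0.13). The second Flcn probe gave -0.05. The other Slc38a9 probes, both dimmer, gave -0.02 and -0.03 with BMS614 and -0.42 and 0.28 with AR7, so that gene's probes disagreed. By brightest probes, none of 11 genes of the GATOR complexes and amino acid sensors passed. They ran from Sesn1 (-0.12) to Depdc5 (0.17) with AR7, and from Sesn3 (-0.17) to Depdc5 (0.06) with BMS614. The probes of Depdc5 disagreed. Probe A_55_P1984381, with a mean signal of 5.45, gave -0.54 with AR7 and 0.60 between BMS614 and AR7, both past the threshold and opposite to A_55_P2023415, which gave 0.23 and -0.30.

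Among 8 mTORC1 substrates, Tfeb, a transcription factor for lysosomal genes, was lower with BMS614 than with AR7, by -0.33 with an SD of 0.38. It read 5.08, 5.10 and 4.78, all dim. The highest and lowest others were Ulk1 (0.15) and Rps6kb2 (-0.05) with AR7, and Eif4ebp1 (0.11) and Grb10 (-0.23) with BMS614.

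The 11 measured substrates of mTORC2 and AKT hold the forkhead factors that AKT keeps out of the nucleus. Foxo3 read 5.82 in None, 5.49 with AR7 and 5.46 with BMS614, and both treated arrays were lower. Its differences were -0.33 (SD 0.39) and -0.36 (SD 0.33), so they passed the fold but were about as large as spot error. Foxo4 read 5.29, 5.07 and 4.67, with differences of -0.62 (SD 0.33) with BMS614 and -0.39 (SD 0.38) between BMS614 and AR7. Of the others, Tbc1d4, the AKT substrate that releases glucose transporters, was the highest with each compound, at 0.30 and 0.21, and its second probe gave 0.17 and -0.13. The lowest other with AR7 was the kinase Sgk3, at -0.27 with an SD of 0.05. With BMS614 it was Tbc1d1, a relative of Tbc1d4, at -0.09, and its dimmer probe gave -0.48 with BMS614 and -0.45 with AR7, both past the threshold. By brightest probes, none of 15 measured FOXO target genes passed in any comparison. Their medians were -0.01 and -0.0014, and they ran from Klf2 (-0.24) to Insr (0.32) with AR7 and from Sesn3 (-0.17) to Insr (0.21) with BMS614, where the other Insr probes gave 0.37 and 0.36, past the threshold.

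None of the 11 genes listed as AKT phosphatases and adaptors, a list without the members, passed. With AR7 they ran from Ppp2ca (-0.12), the catalytic subunit of PP2A, to its scaffold Ppp2r1a (0.08). With BMS614 they ran from the pseudokinase Trib3 (-0.20) to Thap12 (0.14), a listed gene whose link to AKT was not checked. The second Thap12 probe went the other way, at -0.09 with BMS614 and -0.32 with AR7, just under the threshold. None of 6 measured CMA genes at the lysosome passed either. Lamp2, whose LAMP2A isoform is the CMA receptor, was the highest with each compound, at 0.23 (SD 0.06) with AR7 and 0.16 (SD 0.05) with BMS614. Its second probe gave 0.04 and 0.10, and neither probe was matched to an isoform. Ctsa, the protease that cleaves LAMP2A, was the lowest with each by its brightest probe, at -0.08 and -0.14, but its dimmer probe gave 0.18 and -0.03. Of the 3 probes of Hspa8, the CMA chaperone HSC70, the brightest gave -0.07 with BMS614 and the others -0.31 and -0.08, all under the threshold.

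The pattern of Rictor over the arrays was compared with the 93 pathway genes by Euclidean distance over the 3 arrays after centring each gene. The nearest were Igf1r at a distance of 0.11, the lipid phosphatase Inppl1 at 0.12 and the PI3K catalytic subunit Pik3ca at 0.13. Igf1r differed from None by 0.24 with AR7 and 0.30 with BMS614, so its treated arrays lay together. Inppl1 differed by -0.01 and 0.23, so only BMS614 stood apart. Pik3ca differed by 0.07 and 0.18 and had the same order as Rictor. Patterns as near as these were common, with 469, 596 and 730 of 13804 named genes as near as each, and 3 points fix a pattern only loosely.

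**Figure D5:**
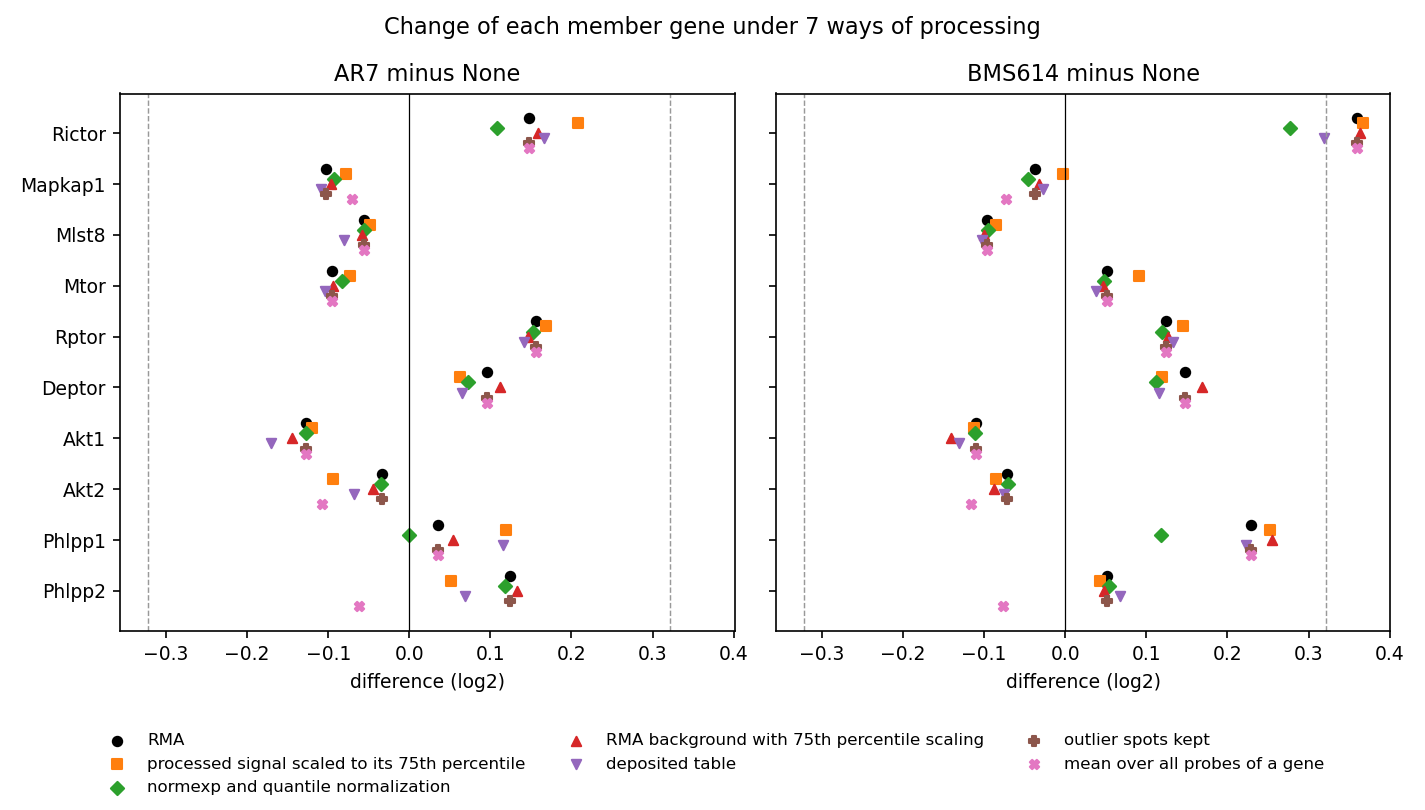
Log2 difference from None of each member gene under 7 ways of processing the same arrays, with dashed lines at the threshold of 0.32. Genes keep their side of 0 under most settings, the Phlpp2 value with all its probes averaged falls below 0, and Rictor with BMS614 spans 0.28 to 0.37 across the dashed line.

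Processing moved the member values little. The differences of the 10 genes in 3 comparisons were recomputed in 6 other ways. Of 180 values, 173 stayed within 1 SD of repeated spots of the value given above. Some of these values could not change. No member probe had an outlier spot to keep, and averaging leaves a gene with 1 probe as it was. Averaging all probes of a gene turned Phlpp2 to -0.06 with AR7 and -0.08 with BMS614, since the mean then includes the dim probe.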

How the data were processed

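RNA from 3 NIH3T3 cultures was hybridised to 1-colour (Cy3) Agilent arrays on 1 slide, with 1 array per condition. The authors deposited the intensity of each spot as read by Agilent Feature Extraction 10.7.3.1, not normalized between arrays. They also deposited 1 table of intensity values they had processed. The study's methods and the submitters' processing notes name RMA and the oligo package, without a version. Here the RMA convolution background was fitted to the median pixel intensity of each array, followed by quantile normalization over the 3 arrays and log2, in R 4.3.3 with limma 3.58.1. Background subtraction and quantile normalization force the arrays to one distribution, so a shift of all genes would not be seen, and differences of dim probes are compressed or widened by the background fit.

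Further steps used Python 3.11.15, numpy 2.4.6, pandas 2.3.3 and matplotlib 3.10.9. Control and outlier spots were left out, spots of a probe were averaged, and a gene was represented by its brightest probe. A probe entered a comparison if well above background on at least 1 of its 2 arrays, and one dim on the other counted by its bound. Repeat-spot SDs were taken in 10 bins of signal and divided by the square root of the number of spots of the probe. No test was made. Probes well above background made up 55.4% (None), 61.2% (AR7) and 61.8% (BMS614) of the arrays, and the number of arrays limits the precision. The columns of the deposited table are on a linear scale, with medians of 65.0 (None), 70.7 (AR7) and 67.5 (BMS614), and correlate with the processed scanner signal of their array at 0.996 to 0.997. How it was centred is not known. It served as an alternative, with values under 16 set to 16.

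The member genes and the pathway lists were chosen with earlier results of these data known. One list entry is not reported here and enters no list count. All member probes are named. Of each list, genes past the threshold in any comparison and otherwise the highest and lowest with each compound are named, with the 3 genes most like the widest-ranging member. The alternatives were normexp with an offset of 50, the processed signal or the RMA-corrected signal scaled to the 75th percentile, the deposited table, outlier spots kept, other folds, other filters on dim probes and the mean over all probes. The scripts were tested on simulated data.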

Additional observations from a re-analysis of the deposited data

How the results depend on the processing

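With 1 array per condition no replicate could be left out. No paired analysis was possible because only 1 array stands for each condition. Of the member counts, those for AR7 and for BMS614 against AR7 were 0 under each alternative run. Some alternatives could give nothing else, namely the higher folds, outlier spots kept and the filter on all 3 arrays. The BMS614 count of 1, Rictor, was 0 with normexp, with the deposited table, at 1.5-fold and at 2-fold. The member medians ran from -0.059 to 0.0047 with AR7, -0.011 to 0.067 with BMS614 and 0.0074 to 0.045 between them. They moved by less than the median repeat-spot SD of single member genes, 0.080 with AR7. That SD is not the error of a median over 10 genes. The sign of the AR7 median turned with normexp (-0.017), the deposited table (-0.0016) and the mean over all probes (-0.059), and that of BMS614 with the mean over all probes (-0.011). Of 180 member values 7 moved by more than 1 SD and 4 changed sign, none of them a called value: both Phlpp2 differences from None with all its probes averaged, Akt2 between BMS614 and AR7 with the processed signal (0.01) and Mapkap1 there with its probes averaged (-0.0022). The cause was not tested.

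Counts over all probes depended on the setting more than the member values did. For AR7, 5871 probes became 1120 with normexp, 3298 with the deposited table, 2159 at 1.5-fold, 542 at 2-fold and 15751 with no filter on dim probes. For BMS614, 6581 became 1613, 4060, 2399, 606 and 16094 in the same order. Between them, 6981 became 1100, 3429, 2638, 592 and 13611, and 3818 where a probe had to exceed background well on each of the 3 arrays. The share of calls that were higher was 54.7% for AR7 but 79.5% with the processed signal and 74.1% with the deposited table, 51.3% for BMS614 but 70.2% with the processed signal and 63.2% with 75th percentile scaling, and 49.8% between them but 26.7% with the deposited table. No scaling moved the median of all probes by over 0.1. Dim probes, among them Tsc2, Foxo3, Foxo4 and Tfeb, carry the largest error.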
